A study of Ovis aries with 6 samples.

Results

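WNT proteins are secreted, lipid-modified signals. Porcupine adds the lipid, and WLS (Wntless) carries the finished ligand to the cell surface. At the receiving cell the ligand binds a frizzled, a multi-pass membrane receptor. Frizzled with the coreceptor LRP6 stabilises beta-catenin, whereas WNT5A acting through frizzled and the receptor tyrosine kinase ROR2 signals without it. In adipose precursors the beta-catenin branch is known for holding back fat cell formation. The genes described here are 10 listed members of this receptor, ligand and secretion machinery, chosen by symbol: the frizzleds FZD1, FZD2, FZD4, FZD7 and FZD8, LRP6, ROR2, the ligands WNT5A and WNT5B, and WLS. Of these, 9 were found among the 26425 rows of the expression table and FZD8 was not analysed here.

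RNA sequencing was performed on sheep cells of the adipose stromal vascular fraction, labelled adipocyte. Of 6 samples, 3 overexpressed MEOX2, a transcription factor of the homeobox class active in mesoderm, and 3 carried the label NC. The columns of both groups carry the prefix pHBLV, which no label explains. The labels give no further genotype, animal, age, time or promoter and do not say whether replicates were separate cultures, so the p-values rest on a spread between samples that could be technical only. All values are FPKM, reads scaled to gene length and library size, from libraries of 11772772 to 12230863 recovered reads. MEOX2 averaged 132.9 ± 23.0 FPKM in MEOX2 samples and 9.98 ± 0.910 FPKM in NC samples (SD, n = 3 each).

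The label adipocyte was checked against marker genes. Of 8 mature adipocyte markers, 7 were in the table, 6 were tested and 5 were lower in MEOX2 samples. LPL was not called, at 39.7 ± 4.28 FPKM in MEOX2 samples and 39.5 ± 2.45 FPKM in NC samples. The 7 markers summed to 125.6 to 147.9 FPKM in MEOX2 samples and 297.3 to 352.2 FPKM in NC samples, most of it FABP4, with LEP at 0 reads throughout. The 10 stromal progenitor markers summed to 15445 to 17066 FPKM in MEOX2 samples and 14155 to 14817 FPKM in NC samples, most of it COL1A1. Of these, 9 were tested and none was called. Single markers went both ways without overlap: PDGFRA, DCN and LUM were higher in MEOX2 samples, and ENG and NT5E were lower. The part of the lower adipocyte marker level in the changes below was not tested. In bulk RNA, fewer cells of a type and less RNA per cell cannot be told apart.

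The frizzled mix differed between the groups: FZD4 fell and FZD7 rose with MEOX2, while FZD1 was the highest frizzled by FPKM in every library. WLS rose. LRP6, ROR2, WNT5A, FZD1 and FZD2 did not pass the test. WNT5B was not tested, because its mean was below the minimum of 1 FPKM over the 6 samples. Thus 2 of 8 tested members rose and 1 fell by limma (adjusted p below 0.05 over all genes), against 2.67% of all 13121 genes tested that were called in either direction, 1.51% higher and 1.16% lower. With limma voom, a fit on the reads recovered from the FPKM values, FZD4, FZD7 and WLS were again the members called, against 4.36% of all genes tested. The members were chosen with earlier results of these data known, so these shares do not test for an excess of calls. The limma background of 2.67% rests on 350 called genes. The count was 188, 195 and 130 without MEOX2 samples 1, 2 and 3, and 117, 180 and 276 without NC samples 1, 2 and 3. For 4 of the 8 tested members the MEOX2 samples lay wholly apart from the NC samples, 3 of them higher and 1 lower. The same held for 18.9% of all genes tested, 9.60% higher and 9.33% lower. The median log2 change of the 8 was 0.13, and that of all genes tested was -0.0027.

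**Figure D1:**
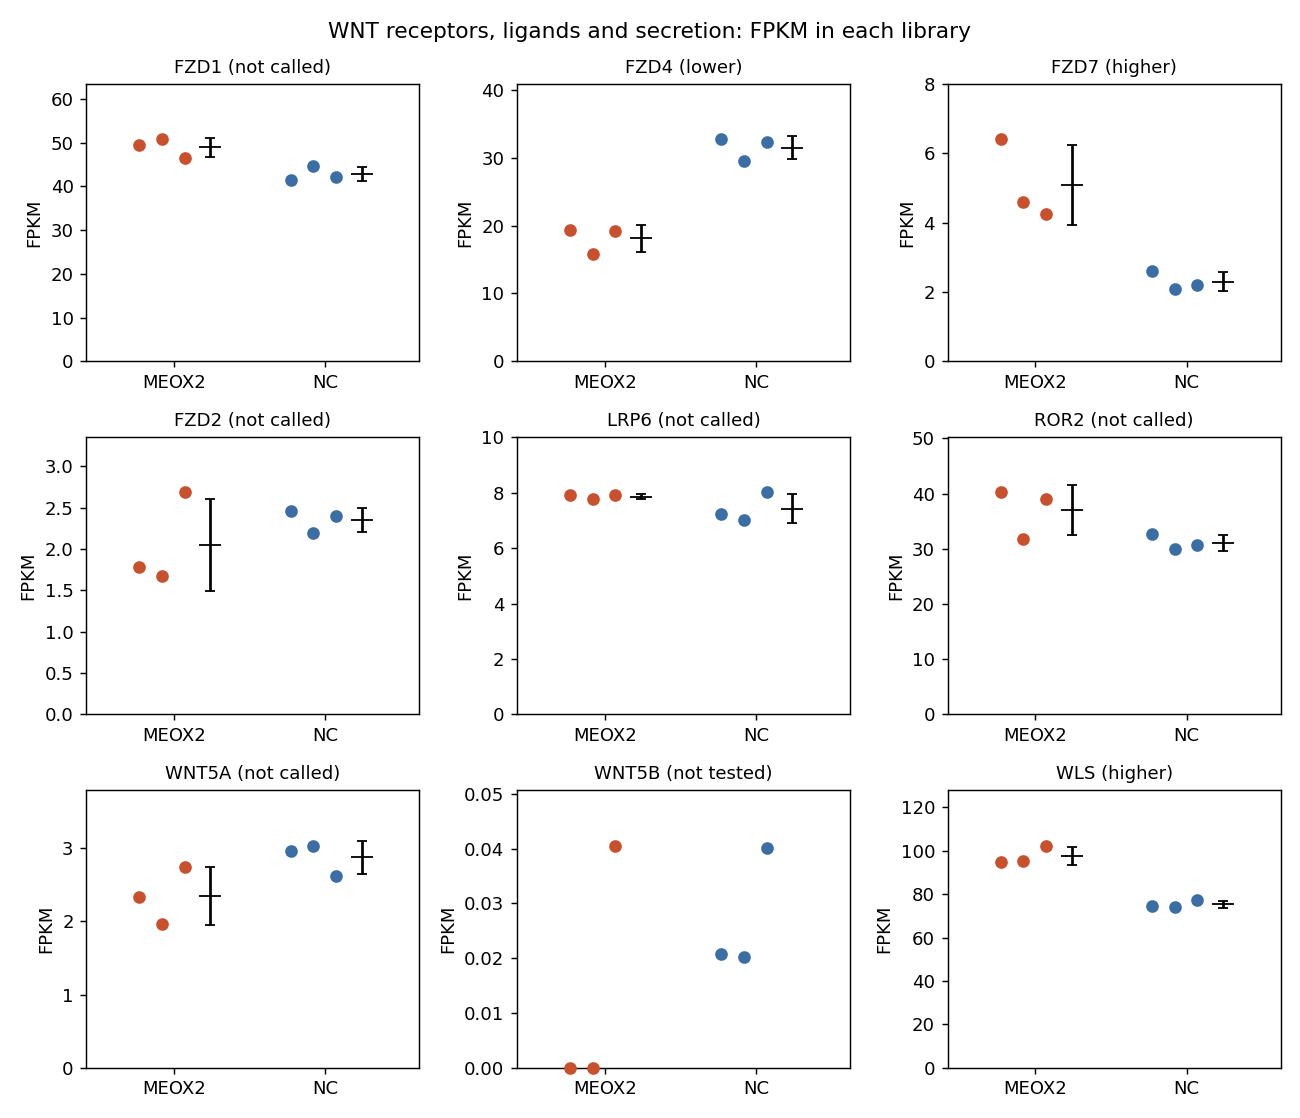
FPKM of the 9 members in each library (points; MEOX2 samples 1 to 3 and NC samples 1 to 3, left to right within a group), with the group mean and SD beside them (WNT5B, with 0 to 2 reads per library, has points only). The FZD4 points of the 3 MEOX2 samples all lie below those of the 3 NC samples, and the FZD7, FZD1 and WLS points all lie above; the other genes overlap.

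FZD4 (ENSOARG00000004175, chromosome 21, 8036384 to 8045013, plus strand; the sources used here name no genome build) is a receptor for WNT ligands and for norrin. It had 19.3, 15.8 and 19.2 FPKM in MEOX2 samples 1 to 3, against 32.7, 29.5 and 32.3 FPKM in NC samples 1 to 3. The groups did not overlap, and sample 2 was the lowest within each. The means were 18.1 ± 1.98 FPKM in MEOX2 samples and 31.5 ± 1.76 FPKM in NC samples (SD, n = 3 each), a ratio of 0.576. The log2 change of FPKM + 1 was -0.77 (SE 0.10; limma adjusted p = 0.00697). At 1280 to 2587 reads per library FZD4 was better counted than FZD7, the other frizzled that changed. It stayed past the threshold without any single library, with limma adjusted p values of 0.0171 to 0.0409. FZD4 is also made by blood vessel cells. Of 8 endothelial markers, 6 were in the table, with a summed level of 2.44 to 4.07 FPKM in MEOX2 samples and 2.32 to 3.68 FPKM in NC samples. EGFL7 had 14 to 33 reads per library and was not called, VWF had 8 to 23, ERG 6 to 13 and TEK 4 to 10 reads, and CDH5 had at most 4 and KDR at most 2. The part of such cells in the FZD4 level was not tested.

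FZD7 (ENSOARG00000017534, chromosome 2, 203261392 to 203263193, plus strand), which belongs with FZD1 and FZD2 to one closely related branch of the frizzled family, had 6.41, 4.60 and 4.26 FPKM in MEOX2 samples 1 to 3. It had 2.60, 2.07 and 2.21 FPKM in NC samples 1 to 3. MEOX2 sample 1 was the highest, and the lowest MEOX2 sample exceeded the highest NC sample. The means were 5.09 ± 1.15 FPKM in MEOX2 samples and 2.30 ± 0.275 FPKM in NC samples (SD, n = 3 each), a ratio of 2.22. The log2 change was 0.87 (SE 0.16; limma adjusted p = 0.0241). The gene rested on 80 to 112 reads per MEOX2 library and 39 to 48 reads per NC library. For MEOX2 sample 3, the lowest of its group, the exact Poisson 95% interval ran from 3.37 to 5.30 FPKM, and for NC sample 1, the highest of its group, from 1.92 to 3.45 FPKM; these intervals cover counting error only. The call of FZD7 was lost without any one of the 6 libraries, with limma adjusted p values of 0.0502 to 0.0833, while its log2 change stayed between 0.72 and 0.97.

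FZD1 (ENSOARG00000016629, chromosome 4, 8610340 to 8612052, plus strand), the highest frizzled by FPKM, had 49.4, 50.8 and 46.5 FPKM in MEOX2 samples 1 to 3 and 41.5, 44.5 and 42.1 FPKM in NC samples 1 to 3. Before division by gene length, FZD4 had more reads than FZD1 in every library, 1280 to 2587 against 783 to 993. The FZD1 values of the groups did not overlap, with means of 48.9 ± 2.17 FPKM in MEOX2 samples and 42.7 ± 1.60 FPKM in NC samples (SD, n = 3 each). The log2 change of 0.19 (95% interval 0.02 to 0.36) did not pass over all genes (limma adjusted p = 0.298). FZD2 (chromosome 11, 43747339 to 43749370), the third gene of that branch, had 1.78, 1.67 and 2.68 FPKM in MEOX2 samples 1 to 3 and 2.46, 2.19 and 2.39 FPKM in NC samples 1 to 3. MEOX2 sample 3 was above every NC sample, and the other two MEOX2 samples were below them. Its log2 change was -0.15 (95% interval -0.52 to 0.21; limma adjusted p = 0.776), on 37 to 60 reads per library.

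The frizzled mix was expressed as the share of each receptor in the summed FPKM of FZD1, FZD2, FZD4 and FZD7. This quantity does not depend on library scaling but does depend on the gene lengths used. FZD4 took 25.1%, 21.7% and 26.5% of the sum in MEOX2 samples 1 to 3, against 41.3%, 37.7% and 40.8% in NC samples 1 to 3. FZD1 took 64.2%, 69.6% and 64.0% in MEOX2 samples, against 52.3%, 56.9% and 53.3% in NC samples. FZD7 took 8.33%, 6.32% and 5.85% in MEOX2 samples, against 3.28%, 2.65% and 2.80% in NC samples. None of these 3 shares overlapped between the groups. FZD2 averaged 2.77% ± 0.802 in MEOX2 samples and 2.98% ± 0.160 in NC samples (SD, n = 3 each), and its shares overlapped. The mean share of FZD4 differed by -15.5 percentage points, MEOX2 minus NC (24.4% ± 2.43 in MEOX2 samples and 39.9% ± 1.97 in NC samples). FZD1 was 11.8 points and FZD7 3.92 points higher in MEOX2 samples. The shares of a library have a fixed total, so a lower FZD4 share raises the others and the 4 shares are not independent. The FPKM of FZD1 itself was not called (limma adjusted p = 0.298). Exact two-sided permutation tests gave p = 0.1 for each of the shares of FZD1, FZD4 and FZD7, the smallest value that 3 against 3 samples allow, and 0.8 for FZD2 (0.133 and 0.8 after Benjamini-Hochberg adjustment over the 4 shares).

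**Figure D2:**
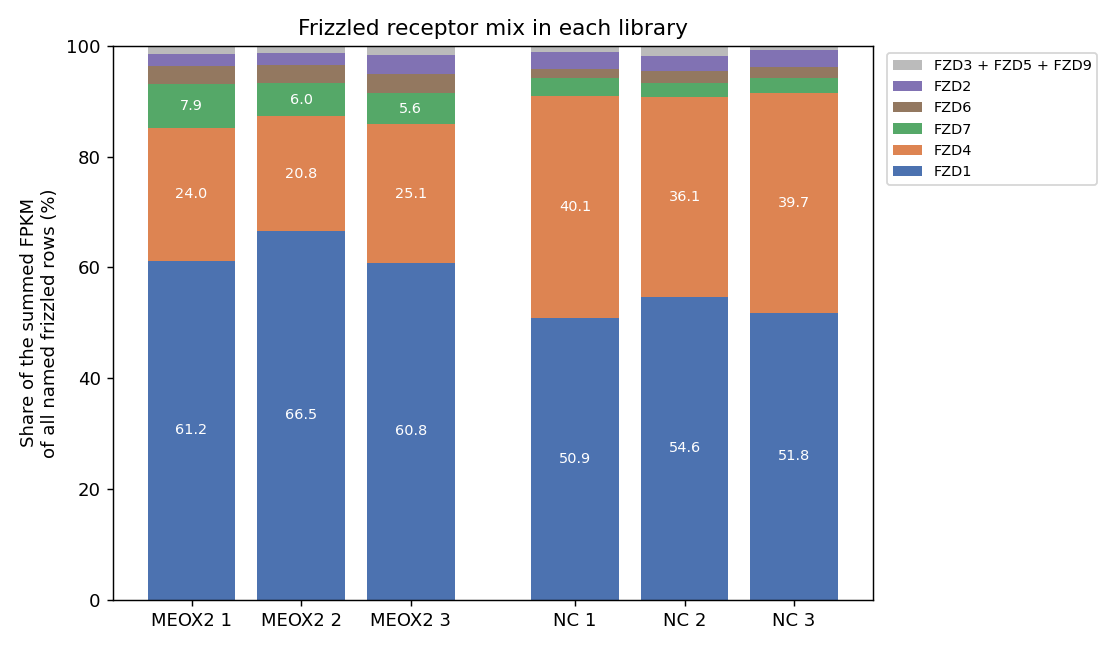
Share of each frizzled in the summed FPKM of the 8 named frizzled rows, in percent, for each library (stacked bars; MEOX2 samples on the left). FZD1 and FZD4 fill most of every bar, and the FZD4 segment is smaller in the 3 MEOX2 bars, at 20.8% to 25.1%, than in the 3 NC bars, at 36.1% to 40.1%.

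The summed FPKM of the 4 frizzleds changed less than the mix, a comparison that depends on the gene lengths used. Before division by length FZD4 had the most reads of the 4 in every library, so it weighs more in reads than in FPKM. The sum was 76.9, 72.9 and 72.7 FPKM in MEOX2 samples 1 to 3 and 79.3, 78.3 and 79.0 FPKM in NC samples 1 to 3. Every MEOX2 sum was below every NC sum, with a ratio of means of 0.940. Within a library, FZD4 exceeded FZD7 by 3.02, 3.44 and 4.52 times in MEOX2 samples 1 to 3, against 12.6, 14.2 and 14.6 times in NC samples 1 to 3. The ratio of FZD7 to FZD4 was thus 3.81-fold higher in MEOX2 samples (log2 difference 1.93; exact two-sided permutation p = 0.1, n = 3 each). FZD1 exceeded FZD4 by 2.56, 3.20 and 2.42 times in MEOX2 samples and by 1.27, 1.51 and 1.31 times in NC samples. All these ratios lay apart between the groups.

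The remaining named frizzled rows were low. FZD6, a frizzled of another branch, averaged 2.56 ± 0.10 FPKM in MEOX2 samples and 1.61 ± 0.197 FPKM in NC samples without overlap (SD, n = 3 each), and did not pass (log2 change 0.45; limma adjusted p = 0.154). FZD3, FZD5 and FZD9 each had a mean below 1 FPKM and were not tested. With all 8 named rows in the sum, the share of FZD4 was 23.3% ± 2.26 in MEOX2 samples and 38.6% ± 2.17 in NC samples, and that of FZD6 3.28% ± 0.0980 in MEOX2 samples and 1.97% ± 0.244 in NC samples (SD, n = 3 each). A row without a symbol, annotated to the frizzled domain family (ENSOARG00000016494, chromosome 17, 46531749 to 46533173), averaged 2.46 ± 0.356 FPKM in MEOX2 samples and 2.15 ± 0.560 FPKM in NC samples and overlapped between groups.

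Both coreceptor and alternative receptor were measured well. LRP6 (chromosome 3, 202400052 to 202571861), the partner of frizzled in the beta-catenin branch, had 7.90, 7.76 and 7.90 FPKM in MEOX2 samples 1 to 3 and 7.22, 7.01 and 8.01 FPKM in NC samples 1 to 3. NC sample 3 was above all MEOX2 samples, so the groups overlapped. The log2 change of 0.08 had a 95% interval of -0.14 to 0.29 (limma adjusted p = 0.817). ROR2 (chromosome 2, 26611152 to 26666181), which binds WNT5A, had 40.2, 31.7 and 39.0 FPKM in MEOX2 samples 1 to 3 and 32.6, 29.9 and 30.8 FPKM in NC samples 1 to 3. MEOX2 sample 2 lay within the range of the NC samples. Its log2 change was 0.24 (95% interval 0.01 to 0.47; limma adjusted p = 0.354). ROR1, the close relative of ROR2, averaged 6.08 ± 0.641 FPKM in MEOX2 samples and 4.61 ± 1.06 FPKM in NC samples (SD, n = 3 each; limma adjusted p = 0.352). ROR2 exceeded ROR1 by 5.78 to 6.49 times in MEOX2 samples and by 5.27 to 8.30 times in NC samples, with overlap.

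Among ligands, WNT5A (ENSOARG00000015400, chromosome 19, 45575915 to 45594001, plus strand) had 2.34, 1.96 and 2.75 FPKM in MEOX2 samples 1 to 3 and 2.97, 3.04 and 2.62 FPKM in NC samples 1 to 3. MEOX2 sample 3 was above NC sample 3, so the groups overlapped. The log2 change was -0.22 (95% interval -0.53 to 0.10; limma adjusted p = 0.580). WNT5B (chromosome 3, 212137441 to 212152515), its near relative, had 0, 0 and 2 reads in MEOX2 samples 1 to 3 and 1, 1 and 2 reads in NC samples 1 to 3. All 6 values were under the level of 3 reads, 0.0599 to 0.0655 FPKM, so no difference was detectable at this depth.

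Transcripts of the named WNT rows were scarce. Of 17 named WNT rows, 6 had no read in any library, 15 had a mean below 1 FPKM, and only WNT2 and WNT5A were tested. WNT2 had 3.68, 3.62 and 3.68 FPKM in MEOX2 samples 1 to 3 and 3.89, 5.30 and 3.78 FPKM in NC samples 1 to 3, with a limma adjusted p of 0.650. A row without a symbol but annotated to the WNT family (ENSOARG00000019064, chromosome 3, 137064274 to 137086490) was higher than every named WNT. It averaged 23.3 ± 2.31 FPKM in MEOX2 samples and 21.3 ± 2.77 FPKM in NC samples (SD, n = 3 each), overlapped between groups and was not called (log2 change 0.13; limma adjusted p = 0.729). This row was singled out after its values were seen, and its gene was not identified. The listed ligands WNT7B and WNT10B were matched to no row by symbol or synonym.

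WLS (ENSOARG00000011383, chromosome 1, 43385181 to 43500791, minus strand), the cargo receptor that WNT ligands need to leave the cell, was the highest member, with 9.09% of tested genes above its mean level. It had 94.8, 95.4 and 102.4 FPKM in MEOX2 samples 1 to 3, against 74.6, 73.9 and 77.2 FPKM in NC samples 1 to 3. Every MEOX2 sample was above every NC sample. The means were 97.6 ± 4.21 FPKM in MEOX2 samples and 75.2 ± 1.73 FPKM in NC samples (SD, n = 3 each), a ratio of 1.30. The log2 change was 0.37 (SE 0.07; limma adjusted p = 0.0302). The call was lost without MEOX2 sample 1 (limma adjusted p = 0.0751), MEOX2 sample 2 (0.0731), MEOX2 sample 3 (0.143), NC sample 1 (0.148) or NC sample 2 (0.0880) and held without NC sample 3 (0.0440). It was also lost without an intensity trend in the variance (0.0760). Of the 3 tested genes within 500 kb of WLS, GNG12, a G protein gamma subunit, was also called (log2 change 0.39; limma adjusted p = 0.0403) and was named after its value was seen. None of the tested genes within 500 kb of the other 8 members was called, with 0 (WNT5A) to 22 (FZD2) tested per member. Beside the 2.67% of all genes tested that were called, numbers this small cannot set WLS apart.

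**Figure D3:**
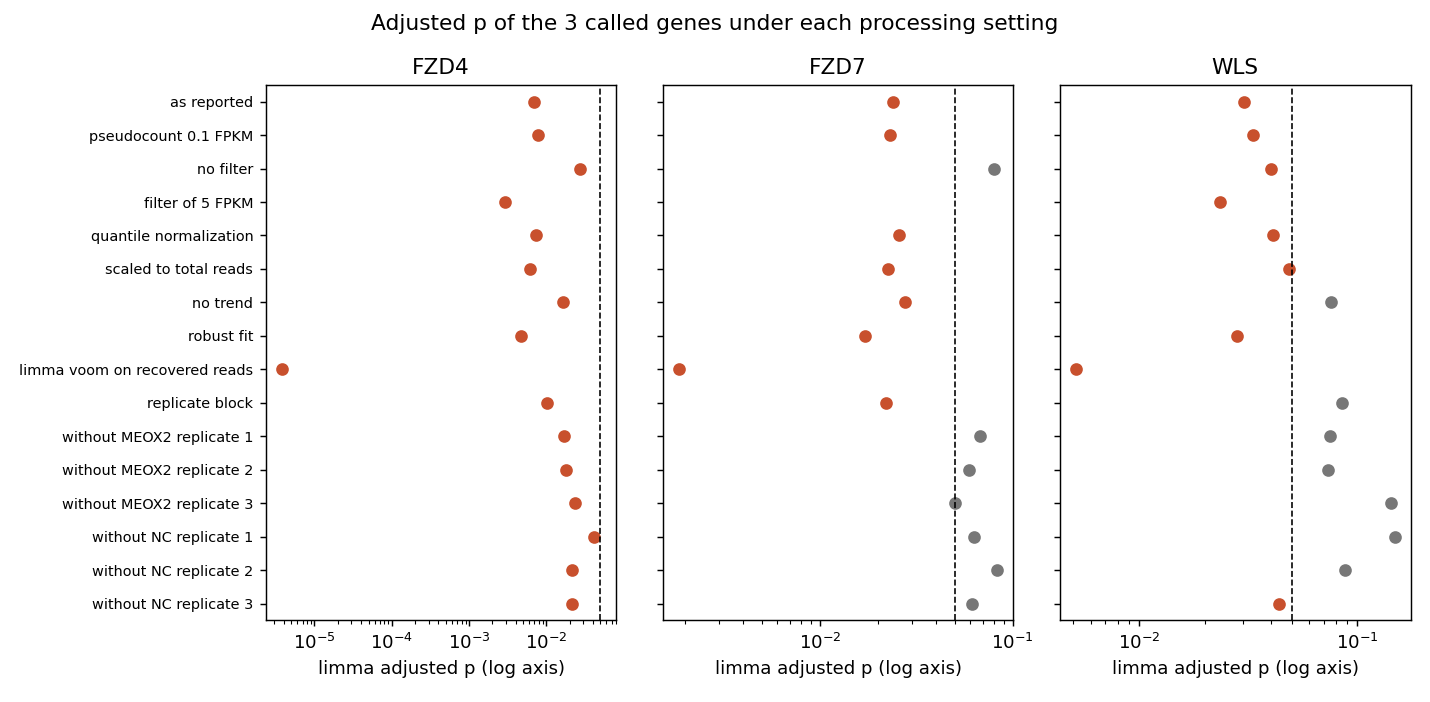
Limma adjusted p (log axis) of FZD4, FZD7 and WLS under the reported fit and each alternative setting (coloured points lie below the dashed threshold of 0.05, grey points above it). FZD4 lies below the threshold throughout, whereas FZD7 crosses it without a filter and without any one library, and WLS crosses it in 5 of the 6 fits that leave out a library, without a trend and with a replicate block.

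FPKM allows levels to be ordered between genes, since it divides by gene length. In MEOX2 samples the order of mean FPKM was WLS, FZD1, ROR2, FZD4, LRP6, FZD7, WNT5A, FZD2 and WNT5B. In NC samples it was WLS, FZD1, FZD4, ROR2, LRP6, WNT5A, FZD2, FZD7 and WNT5B. FZD4 and ROR2 overlapped in NC samples, whereas every ROR2 value was above every FZD4 value in MEOX2 samples. FZD2 and FZD7 likewise overlapped in NC samples, and in MEOX2 samples every FZD7 value was above every FZD2 and WNT5A value. WNT5A and FZD2 overlapped in MEOX2 samples but not in NC samples. The order depends on the gene models. The lengths of 6 of the 9 rows, FZD1, FZD2 and FZD7 among them, were multiples of 3, beside 74.1% of all protein-coding rows. Rows of such a length may cover coding sequence alone, but the length by itself does not show it. The FZD4 row covers 6491 bases and is not such a multiple.

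The other genes of the pathway were taken from 8 lists of 101 genes, chosen with earlier results of these data known. Of these genes, 89 were in the table and 50 were tested. By limma 2 rose, 2 fell and 46 were not called, against 2.67% of all genes tested that were called (1.51% higher, 1.16% lower). All 4 called genes came from the list of secreted and membrane antagonists. SFRP1 averaged 78.2 ± 14.6 FPKM in MEOX2 samples and 31.6 ± 2.46 FPKM in NC samples (SD, n = 3 each), and SFRP2 averaged 107.7 ± 5.82 FPKM in MEOX2 samples and 162.4 ± 8.46 FPKM in NC samples. SFRP4 fell, with a log2 change of -0.57 (limma adjusted p = 0.0146), whereas DKK3 rose by 0.75 (0.00820). Secreted frizzled-related proteins carry the frizzled ligand-binding domain without the membrane part. The call of SFRP4 was lost without MEOX2 sample 3 (limma adjusted p = 0.0547) or NC sample 1 (0.0776). The median log2 change of the 50 genes was 0.03, beside -0.0027 for all genes tested.

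**Figure D4:**
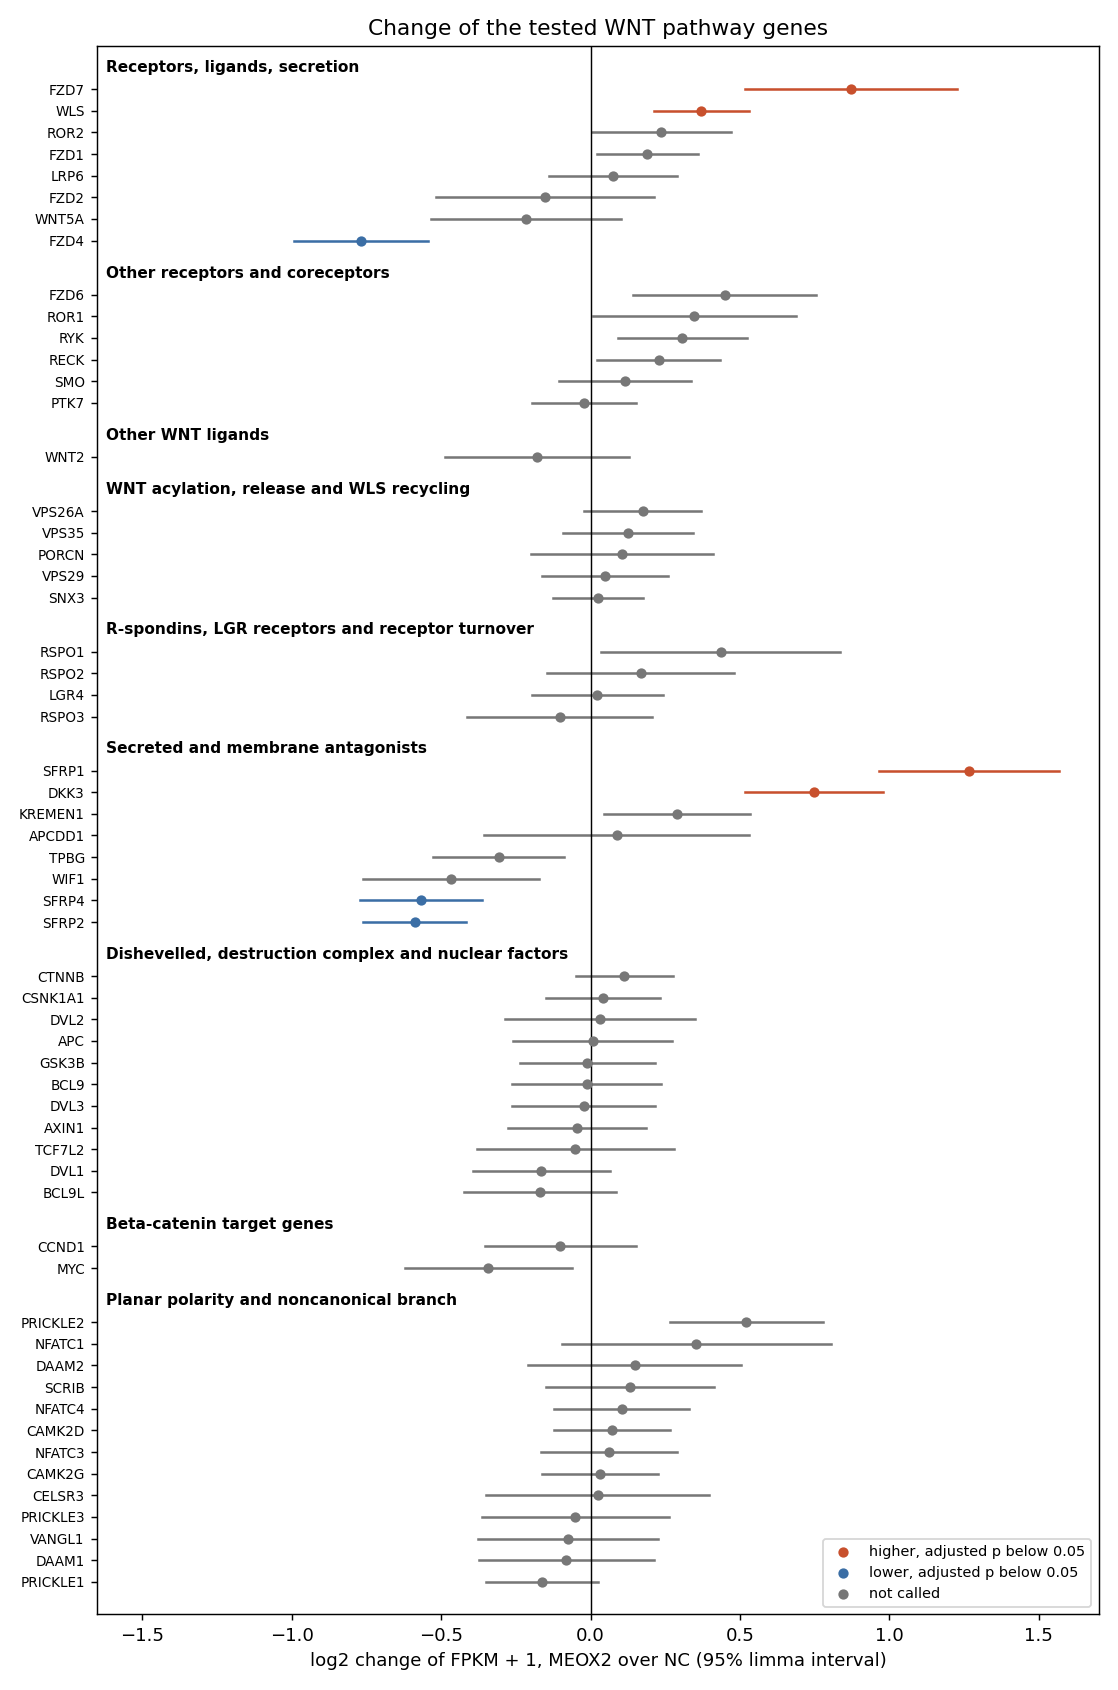
Log2 change of FPKM + 1, MEOX2 over NC, with its 95% limma interval, for the 8 tested members and the 50 tested genes of the 8 other pathway lists. FZD7 and WLS lie right of 0 and FZD4 left of it in the top group, and the other coloured genes, SFRP1, DKK3, SFRP4 and SFRP2, all belong to the list of secreted and membrane antagonists.

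None of the other 7 pathway lists had a called gene by limma. An unadjusted p under 0.05 was reached by 13.4% of all genes tested. Among 6 tested receptors and coreceptors, 4 reached it, and RYK, a WNT-binding receptor with an inactive kinase domain, was the highest at 179.6 ± 7.40 FPKM in MEOX2 samples and 145.5 ± 17.4 FPKM in NC samples (SD, n = 3 each). RYK did not pass by limma (adjusted p = 0.166) and did by limma voom on recovered reads (adjusted p = 0.0417). This list also holds SMO, a frizzled relative that serves Hedgehog signalling. Of the 5 tested genes of WNT acylation, release and WLS recycling, all had a positive log2 change and none had an unadjusted p under 0.05; SNX3, which helps return WLS from endosomes, averaged 255.5 ± 5.83 FPKM in MEOX2 samples and 251.2 ± 8.13 FPKM in NC samples. RSPO3, which spares frizzleds from degradation, was at 31.7 ± 5.23 FPKM in MEOX2 samples and 34.0 ± 4.38 FPKM in NC samples, and 1 of the 4 tested genes of its list had an unadjusted p under 0.05, a count too small to read against the 13.4%. Limma voom called none of the tested genes of those last 2 lists.

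Downstream, none of 11 tested genes of the Dishevelled, destruction complex and nuclear factor list had an unadjusted p under 0.05, and limma voom called none. CTNNB, the row of beta-catenin, was at 325.2 ± 20.7 FPKM in MEOX2 samples and 300.1 ± 0.626 FPKM in NC samples (SD, n = 3 each). Of 8 listed beta-catenin target genes, only MYC and CCND1 were tested, and AXIN2 was below the filter. MYC was at 32.8 ± 5.0 FPKM in MEOX2 samples and 41.7 ± 4.06 FPKM in NC samples, with an unadjusted p of 0.0225 and a limma adjusted p of 0.250, and neither gene was called by limma voom. Of 13 tested genes of planar polarity and the noncanonical branch, 1 had an unadjusted p under 0.05, against 13.4% of all genes tested. It was PRICKLE2, named after its value was seen, at 10.3 ± 1.39 FPKM in MEOX2 samples and 6.82 ± 0.359 FPKM in NC samples (log2 change 0.52; limma adjusted p = 0.0511; limma voom adjusted p = 0.00484). PRICKLE1, the highest of that list by its mean over the 6 samples, was at 16.6 ± 0.815 FPKM in MEOX2 samples and 18.7 ± 0.755 FPKM in NC samples. Transcript levels do not measure signalling.

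Markers of other cell types were set beside these values. Of 8 macrophage and leukocyte markers, 4 were tested and none was called. PTPRC had at most 2 reads in any library, whereas CD163 had 67 to 145 and CD68 had 77 to 124. The summed level was 122.9 to 134.4 FPKM in MEOX2 samples and 114.8 to 122.6 FPKM in NC samples, most of it CD14. The means of CD14 and LAPTM5 were higher in MEOX2 samples, and those of CD68 and CD163 were lower. Of 7 smooth muscle and pericyte markers in the table, 5 were tested. CNN1 and CSPG4 rose, whereas TAGLN (limma adjusted p = 0.0819), MYH11 (ratio 1.03) and NOTCH3 (ratio 1.07) were not called. The list summed to 581.9 to 619.0 FPKM in MEOX2 samples and 483.6 to 495.4 FPKM in NC samples. Most of that was TAGLN, at 502.2 ± 21.4 FPKM in MEOX2 samples and 414.9 ± 3.37 FPKM in NC samples. The sum was higher where FZD7 and WLS were higher, and the part of such cells in their rise was not tested. The mesothelial and epithelial markers summed to 1.93 to 3.26 FPKM in MEOX2 samples and 2.10 to 2.87 FPKM in NC samples, with EPCAM at 0 reads.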

How the data were processed

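Per the submitters' processing notes, the tools were HISAT2 2.0.5, featureCounts 1.5.0-p3, DESeq2 1.20.0, CASAVA 1.8 and fastp; no source used here names their roles, a genome build or strandedness. The authors deposited FPKM values, 1 column per sample. FPKM times gene length gave whole multiples of 1 read per library (100% of values within 0.001 of a whole read), from which reads were recovered. Log2(FPKM + 1) of 13121 genes averaging 1 FPKM or more over all samples was fitted with limma 3.58.1 in R 4.3.3 (intensity trend, no covariates, Benjamini-Hochberg over all genes, threshold 0.05, two-sided). Adding 1 makes the change of low genes look smaller. Shares and ratios used exact permutation tests (scipy 1.17.1). List symbols were matched by symbol or by a RefSeq synonym of assembly ARS-UI_Ramb_v3.0 (CTNNB, PPARG2); unmatched genes were not analysed here. Named genes were the members, MEOX2, called pathway genes, the highest tested gene of each pathway list with no call, and frizzled, WNT and marker genes for their level. Members and lists were chosen with earlier results of these data known. The fit was tested on simulated data. Libraries of a group differed beyond sampling noise, by 3.70 to 12.1 in chi-square per gene. No member overlapped another row except LRP6, which overlaps a pseudogene at 0 FPKM. Alternatives were another pseudocount, filters, scalings, variance models, limma voom with trimmed-mean scaling on recovered reads, a replicate block and each library left out.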

Additional observations from a re-analysis of the deposited data

How the results depend on the processing

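The log2 change of no tested member changed sign under any alternative run, and FZD4 passed in all 15. The 350 calls became 194 (113 higher, 81 lower) without a filter and 572 (313 higher, 259 lower) by limma voom on recovered reads, and 117 to 276 (69 to 154 higher, 48 to 122 lower) with single libraries left out. By limma voom 4 other WNT pathway genes were higher, RYK and PRICKLE2 beside SFRP1 and DKK3, and 1 to 2 were lower with a library left out. The log2 change of FZD7 was 0.87 without a filter (limma adjusted p = 0.0797) and 0.72 to 0.97 with a library left out, and FZD7 was below the stricter filter of 5 FPKM. The log2 change of WLS was 0.37 without a trend (limma adjusted p = 0.0760) and 0.33 to 0.39 with a library left out. With the replicate block it was 0.37 (limma adjusted p = 0.0846), and the block gave 242 calls. Deviations of same-numbered samples from their group means had correlations of -0.0747 to 0.0204, and those of other pairs -0.0854 to 0.0858. With 3 samples per group, these values cannot tell whether same-numbered samples were paired. The FZD7 share differed by 2.52 percentage points when recovered reads were not divided by length. The difference in FZD2 share, -0.212 points as reported, changed sign in that setting (0.274). It also did so without MEOX2 sample 1 (0.0143) or MEOX2 sample 2 (0.0243). The cause of each lost call was not tested. Depth limits FZD2, FZD7 and WNT5A, and WNT5B most.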
